A study of Mus musculus with 32 samples.

Results

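The serpin genes of the mouse testis were followed in RNA bound to the ribosomes of Leydig cells and of Sertoli cells. They were taken as the probe sets whose single current gene symbol starts with Serpin, a clade letter from a to i and a digit, which found 48 genes, each with 1 probe set, among the 19938 genes that the 32 arrays measure under 1 symbol. By clade, these are 15 genes of clade A, 24 of clade B, 2 of clade F, 2 of clade I and 1 each of clades C, D, E, G and H.

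All mice carried RiboTag, an allele of a ribosomal protein gene that adds a hemagglutinin (HA) tag wherever a Cre recombinase has acted, so that an anti-HA antibody pulls down the ribosomes of the chosen cells (IP) from a homogenate of the whole testis (input). In Cyp17iCre: RiboTag mice, in which Cre acts in Leydig cells, IPs were taken after saline (n = 3), the gonadotropin-releasing hormone (GnRH) antagonist acyline for 4 days (n = 2), and acyline followed by human luteinizing hormone (LH) for 1 h (n = 2) or 4 h (n = 2), and inputs after saline (n = 3). In AMH-Cre: RiboTag mice, in which Cre acts in Sertoli cells, IPs were taken after saline (n = 5), acyline for 3 days (n = 2), acyline and follicle-stimulating hormone (FSH) for 1 h (n = 2) or 4 h (n = 2), the GnRH antagonist cetrorelix (n = 2) and cetrorelix with testosterone (n = 2), and inputs after saline (n = 5). The strain and age of the mice are not in the labels. The study's staining also found the tag in scattered cells inside the tubules of Cyp17iCre: RiboTag mice. From its IP to input ratios, the study takes these cells to be Sertoli cells. The labels number the samples of a group but do not say which came from separate animals, so the p-values rest on array-to-array spread alone.

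Serpins are named for serine protease inhibitors. An inhibitory serpin offers a flexible loop as bait, is cut by its protease and then traps it in a covalent complex, which cells clear through receptors such as the low-density lipoprotein receptor-related protein Lrp1. Clade A members are mostly secreted, clade B members mostly stay inside the cell, and several members, such as the hormone carrier Serpina6 and the collagen chaperone Serpinh1, inhibit no protease. In the testis, serpins meet the plasminogen activators that Sertoli cells make and the acrosin of sperm, and male mice without Serpina5, the protein C inhibitor, are infertile.

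Promoters are shown for 6 of the genes that the results turn on. Serpina5, Serpina3a and Serpina3b, which start close together on chromosome 12, were enriched in the IPs of both lines, Serpinf1 and Serpinf2, close together on chromosome 11, were enriched in the Leydig cell IP, and Serpinb6b, on chromosome 13, responded to acyline and LH. Each sequence runs from 250 bases before to 50 bases after the gene's start (RefSeq, build GRCm38.p6), 5′ to 3′ on the gene's strand. Capitals mark AGGTCA, the core site of steroidogenic factor 1 (SF-1, the product of Nr5a1, which Leydig cells use to switch on steroidogenic genes), and the TATA box TATAAA, each read on both strands.
Serpina5, chr12:104100863-104101162, + strand: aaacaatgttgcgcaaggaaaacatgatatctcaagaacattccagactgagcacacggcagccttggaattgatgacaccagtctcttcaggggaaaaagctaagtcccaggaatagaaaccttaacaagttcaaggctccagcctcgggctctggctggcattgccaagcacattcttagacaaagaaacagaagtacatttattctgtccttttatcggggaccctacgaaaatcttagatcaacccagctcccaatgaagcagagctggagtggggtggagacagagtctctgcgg
Serpina3a, chr12:104112474-104112773, + strand: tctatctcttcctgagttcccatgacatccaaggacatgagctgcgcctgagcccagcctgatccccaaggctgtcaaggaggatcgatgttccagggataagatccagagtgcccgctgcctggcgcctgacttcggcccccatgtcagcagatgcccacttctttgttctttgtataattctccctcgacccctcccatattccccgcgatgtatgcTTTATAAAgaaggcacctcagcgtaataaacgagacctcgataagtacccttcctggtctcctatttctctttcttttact
Serpina3b, chr12:104127746-104128045, + strand: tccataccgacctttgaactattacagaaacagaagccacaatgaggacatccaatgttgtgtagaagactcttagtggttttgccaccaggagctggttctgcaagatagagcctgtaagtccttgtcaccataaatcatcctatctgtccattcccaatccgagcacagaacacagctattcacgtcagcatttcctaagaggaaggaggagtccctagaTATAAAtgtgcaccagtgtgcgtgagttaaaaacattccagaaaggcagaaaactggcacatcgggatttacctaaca
Serpinf1, chr11:75422574-75422873, - strand: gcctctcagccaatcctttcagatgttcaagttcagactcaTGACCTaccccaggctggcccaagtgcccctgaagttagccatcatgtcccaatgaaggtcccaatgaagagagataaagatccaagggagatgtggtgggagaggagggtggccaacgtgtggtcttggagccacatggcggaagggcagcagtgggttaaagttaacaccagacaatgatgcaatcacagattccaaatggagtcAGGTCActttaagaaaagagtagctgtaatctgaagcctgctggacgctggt
Serpinf2, chr11:75439452-75439751, - strand: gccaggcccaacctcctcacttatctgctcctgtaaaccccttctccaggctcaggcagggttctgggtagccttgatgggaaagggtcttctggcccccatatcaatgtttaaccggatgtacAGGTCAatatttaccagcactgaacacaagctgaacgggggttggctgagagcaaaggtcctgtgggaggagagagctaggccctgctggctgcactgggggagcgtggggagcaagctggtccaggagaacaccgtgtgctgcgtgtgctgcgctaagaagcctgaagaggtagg
Serpinb6b, chr13:32965011-32965310, + strand: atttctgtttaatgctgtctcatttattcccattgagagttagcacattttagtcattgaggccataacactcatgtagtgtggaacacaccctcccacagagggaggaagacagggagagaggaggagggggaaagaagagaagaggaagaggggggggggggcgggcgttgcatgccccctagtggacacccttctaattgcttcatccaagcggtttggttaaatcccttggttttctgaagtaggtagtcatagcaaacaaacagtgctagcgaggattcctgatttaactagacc
Serpina3a and Serpina3b each had a TATA box near the usual distance from the start, and Serpinf1 and Serpinf2 had SF-1 core sites. In Serpinf1 the core sites began at bases -209 and -2 from the start, and in Serpinf2 at base -126. No letters of either motif were found in the windows of Serpina5 and Serpinb6b. A promoter of this kind was matched for 41 of the 48 genes, 49 promoters in all. AGGTCA was in 17 of the 49 and in 16.3% of the 32851 promoters of all genes, and TATAAA was in 15 of the 49 and in 13.6% of all. AGGTCA was also matched in Serpina11, Serpinb12, Serpinb1c, Serpinb3c, Serpinb3d, Serpinb6d, Serpinb6e, Serpinb9c, Serpinb9d, Serpinb9e and Serpind1. None of these genes passed the signal minimum given below. Serpina16 and Serpina1f also had a match, and both passed the minimum, with highest values of 7.18 and 7.50. Neither was called enriched in the Leydig cell IP, where Serpina1f differed by -0.65 on the log2 scale and Serpina16 was not tested. Of the serpins enriched in the Leydig cell IP that had a promoter to search, only Serpinf1 and Serpinf2 had a match. The 7 genes without a promoter could not be searched. Serpini1 and Serpinb9, not printed here, had neither motif. A match is a description of the letters only.

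Fewer serpins than other genes gave signal in the testis. On the log2 scale of the deposited values, the signal minimum used here is 5.64 (a linear signal of 50), and 23 of the 48 serpins (47.9%) passed it on at least 1 array, against 80.6% of all 19938 genes. Clade A had 9 of 15 genes above it. Clade B had 7 of 24, and these lay almost all in the cluster on chromosome 13, with 6 of 13 genes (Serpinb1a, Serpinb1b, Serpinb6a, Serpinb6b, Serpinb6c and Serpinb9), whereas only Serpinb8 passed of the 11 genes in the cluster on chromosome 1. Both genes of clade F, the single genes of clades C, E, G and H and 1 of 2 genes of clade I passed, and Serpind1 of clade D did not.

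The 25 genes that never passed had highest values between 3.02 and 5.61. They were Serpinb2, Serpinb3a, Serpinb3c, Serpinb3d, Serpinb5, Serpinb7, Serpinb10, Serpinb11, Serpinb12 and Serpinb13 on chromosome 1, Serpinb1c, Serpinb6d, Serpinb6e, Serpinb9b, Serpinb9c, Serpinb9d and Serpinb9e on chromosome 13, Serpina1d, Serpina4-ps1, Serpina7, Serpina9, Serpina11 and Serpina12 of clade A, and Serpind1 and Serpini2. In contrast, 9 genes were above the minimum on every array (Serpina3a, Serpina3n, Serpina5, Serpinb6a, Serpinf1, Serpinf2, Serping1, Serpinh1 and Serpini1). Serpins of the Serpina1, Serpina3, Serpinb6 and Serpinb9 families are close copies of one another, and a probe set of one may also read another, so their values are uncertain to that degree.

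The fractions carried the markers of their cells. Of the Leydig cell markers, 7 of 7 were enriched in the Leydig cell IP, and of the Sertoli cell markers 11 of 11 were enriched in the Sertoli cell IP. In the Leydig cell IP 2 of the 11 Sertoli cell markers passed the test (Trf and Gata4), and the mean over the 11 ran from 8.20 to 8.47 there, against 7.87 to 7.90 in the Cyp17iCre input. In the Sertoli cell IP 6 of 7 Leydig cell markers were lower and Nr5a1 was higher. Of the macrophage markers, 0 of 8 were higher and 5 lower in the Leydig cell IP, and 1 was higher (Mrc1, by 2.79 on the log2 scale) and 5 lower in the Sertoli cell IP. From these arrays the study reports Mrc1 as a receptor specific to Sertoli cells. Spermatid markers were lower, 7 of 8 in the Leydig cell IP and 5 of 8 in the Sertoli cell IP. Of the spermatocyte and spermatogonia markers 2 of 8 were higher (Kit and Zbtb16) and 5 lower in the Leydig cell IP, and 7 of 8 were lower in the Sertoli cell IP. Of the myoid and smooth muscle markers 1 of 6 was higher (Myh11) and 1 lower in the Leydig cell IP, and 2 of 6 were higher (Myh11 and Myl9) and 1 lower in the Sertoli cell IP. No endothelial marker was called. The marker for blood with a value, Alas2, was higher in the Sertoli cell IP.

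In Leydig cells, 12 serpins were enriched in the IP over the input and none was lower. They came from clade A (5 genes), clade B (4 genes), clade F (both genes) and clade G (1 gene), and the log2 differences ranged from 1.12 to 3.93. Of all probe sets tested, 11% were higher and 10.7% lower by the same rule (limma, adjusted p under 0.05 and at least 2-fold), against 12 and 0 of the 21 serpins tested. The median log2 difference of these serpins was 1.2, and that of all probe sets tested -0.029. Of the 21, 5 passed the signal minimum through the IP alone (Serpina3b, Serpina6, Serpinb1b, Serpinb9 and Serpinc1) and 3 through the input alone, so the count rests in part on the filter. Where every array of a group lay under the signal minimum, the fold is given as a bound, the mean of the other group over the minimum. In an IP, more cells of a type and more RNA per cell cannot be told apart.

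The change was largest for Serpinb1a, a neutrophil elastase inhibitor kept in the cytoplasm. It read 10.16, 10.25 and 10.14 in the Leydig cell IPs, against 6.30, 6.23 and 6.22 in the inputs. The groups lay far apart, and the log2 difference was 3.93 ± 0.07 (SE; 15.3-fold, adjusted p = 1.9e-07 by limma). Serpinb9, whose protein protects cells from granzyme B of killer lymphocytes, read 7.81, 8.17 and 8.08 in the IPs, against 4.87, 5.46 and 5.42 in the inputs. No input passed the signal minimum for Serpinb9 (2.77 ± 0.17, SE, at least 5.19-fold, adjusted p = 3.9e-06).
Serpinb6b, another intracellular clade B inhibitor, read 7.57, 7.46 and 7.55 in the IPs, against 5.44, 5.61 and 5.81 in the inputs (1.91 ± 0.10, SE; 3.75-fold, adjusted p = 2.1e-06). Its paralog Serpinb6a was not called, with 10.68, 10.85 and 10.80 in the IPs, against 10.92, 10.80 and 10.78 in the inputs, where the groups overlapped. Serpinb1b was the weakest of the 4 called clade B genes, at 5.53, 5.68 and 5.77 in the IPs, near the signal minimum, against 4.54, 4.56 and 4.28 in the inputs (at least 1.01-fold, adjusted p = 2.5e-05).

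Of the secreted serpins, Serping1, the C1 inhibitor that restrains the first proteases of complement, read 11.27, 11.66 and 11.46 in the Leydig cell IPs, against 9.25, 9.33 and 9.21 in the inputs (2.20 ± 0.11, SE; 4.59-fold, adjusted p = 1.2e-06). Serpinf1 (pigment epithelium-derived factor, which blocks vessel growth and inhibits no protease) read 9.51, 8.83 and 8.99 in the IPs, against 7.11, 6.96 and 7.05 in the inputs (4.19-fold, adjusted p = 1.6e-05). Its neighbour Serpinf2, the plasmin inhibitor alpha-2-antiplasmin, read 8.12, 7.87 and 7.80 in the IPs, against 6.31, 6.18 and 6.32 in the inputs (3.16-fold, adjusted p = 3.5e-06). In each of these 3 genes every IP lay above every input.

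Among clade A genes in Leydig cells, Serpina3n stood out by its size and by its spread. This relative of antichymotrypsin, an acute-phase protein of the liver, read 9.70, 11.43 and 9.65 in the IPs, against 6.60, 7.75 and 6.99 in the inputs. The arrays numbered 2 were the high ones in both groups, and the log2 difference was 3.14 ± 0.50 (SE; 8.84-fold, adjusted p = 0.00077), or 2.88 without both of them, an alternative chosen after seeing the data.
Serpina5 read 12.44, 12.37 and 12.45 in the IPs, against 10.20, 10.15 and 9.90 in the inputs (5.06-fold, adjusted p = 5.8e-07). Serpina6, the carrier of corticosteroids in blood, was just above the signal minimum in the IPs with 5.65, 5.80 and 5.80, against 4.00, 4.13 and 4.51 in the inputs (at least 1.08-fold, adjusted p = 2.6e-05). The pair Serpina3b (at least 2.04-fold, adjusted p = 0.00016) and Serpina3a (2.17-fold, adjusted p = 8.6e-05) completed the clade. Serpina5, Serpina3a and Serpina3b were enriched in the Sertoli cell IP too. Of the 11 Sertoli cell markers, only Trf (2.89-fold) and Gata4 (3.84-fold) were called higher in the Leydig cell IP. The median log2 difference of the 11 was 0.13. The part of tagged tubule cells in Serpina5, Serpina3a and Serpina3b was not tested. The 9 serpins tested and not called in Leydig cells differed by -0.65 to 0.34 on the log2 scale, with Serpini1 the highest.

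**Figure D1:**
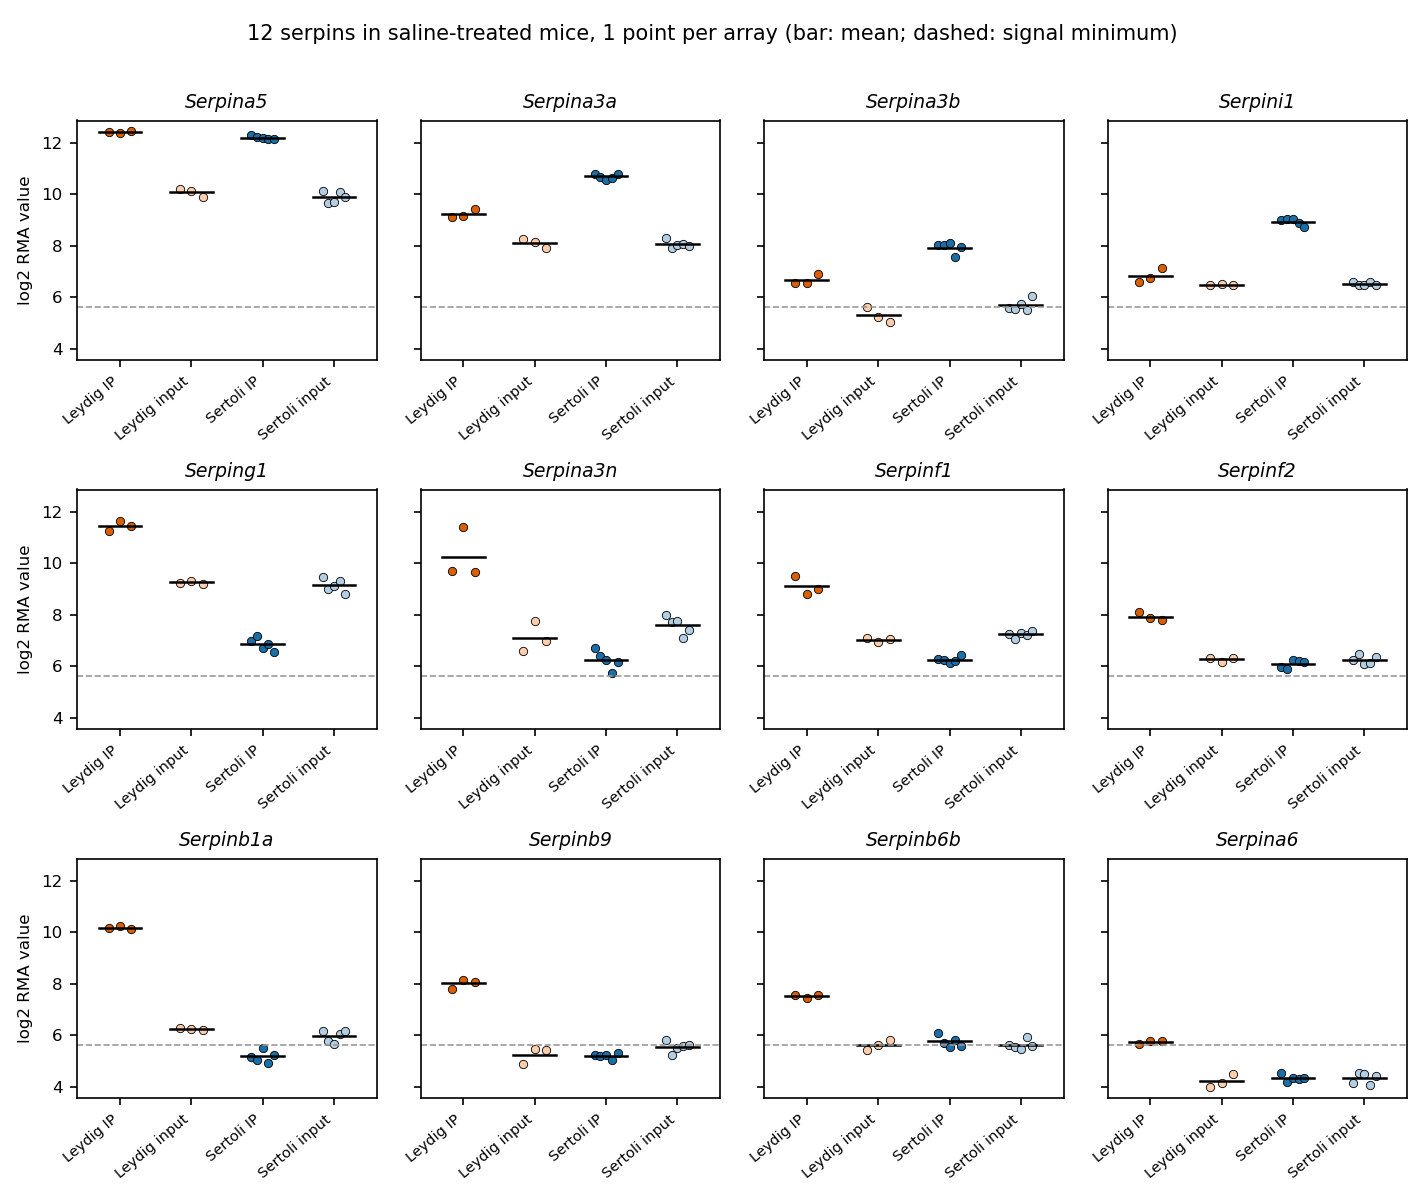
Log2 RMA values of 12 serpins after saline, 1 point per array with bars at the means, in Leydig cell IPs (n = 3) and their inputs (n = 3) and in Sertoli cell IPs (n = 5) and their inputs (n = 5); the dashed line is the signal minimum of 5.64. Serpinb1a and Serping1 lie high in the Leydig cell IPs and low in the Sertoli cell IPs, Serpini1 and Serpina3a are highest in the Sertoli cell IPs, and Serpina5 is high in the IPs of both lines.

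In Sertoli cells a few serpins were called in each direction, not far from the shares over all probe sets. Enrichment was found for 4 (Serpina3a, Serpini1, Serpina5 and Serpina3b) and the opposite for 3 (Serping1, Serpina1c and Serpina3n), of 19 tested, where 12.4% of all probe sets were higher and 11.7% lower. The median log2 difference of the 19 was -0.36, and that of all probe sets tested -0.026. Clade A gave 3 higher and 2 lower genes of 8 tested, and clade B none of 5 in either direction. Of the 19, 5 passed the signal minimum through the input alone (Serpina16, Serpina1c, Serpinb1a, Serpinb6c and Serpinb9) and none through the IP alone.

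Serpina3a, a mouse gene of the antichymotrypsin family, read 10.57 to 10.80 in the 5 Sertoli cell IPs (10.78, 10.69, 10.57, 10.65 and 10.80), against 8.32, 7.92, 8.04, 8.09 and 8.01 in the inputs. The gap was many times the spread within either group, with a log2 difference of 2.63 ± 0.08 (SE; 6.17-fold, adjusted p = 1.6e-10). Serpini1, or neuroserpin, which inhibits tissue plasminogen activator, read 9.0, 9.06, 9.03, 8.89 and 8.73 in the IPs, against 6.61, 6.48, 6.48, 6.59 and 6.47 in the inputs (2.41 ± 0.07, SE; 5.33-fold, adjusted p = 1.6e-10). Serpina5 read 12.30, 12.23, 12.18, 12.14 and 12.14 in the IPs, against 10.15, 9.65, 9.70, 10.08 and 9.91 in the inputs (4.92-fold, adjusted p = 1.1e-09). For these 3 genes no IP overlapped an input. Serpina3b, beside Serpina3a on chromosome 12, read 8.02, 8.04, 8.11, 7.56 and 7.95 in the IPs, against 5.60, 5.55, 5.75, 5.50 and 6.05 in the inputs (4.74-fold, adjusted p = 9.4e-09).

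The reverse held for Serping1, with 6.98, 7.19, 6.72, 6.85 and 6.57 in the Sertoli cell IPs, against 9.46, 9.01, 9.12, 9.31 and 8.83 in the inputs. Its log2 difference was -2.28 ± 0.14 (SE; 4.85-fold lower, adjusted p = 1.8e-08). Serpina3n read 6.73, 6.41, 6.25, 5.73 and 6.18 in the IPs, against 7.99, 7.72, 7.76, 7.10 and 7.43 in the inputs (2.53-fold lower, adjusted p = 5.2e-05). These were the 2 serpins called in opposite directions in the IPs of the 2 lines.
Serpina1c, of the alpha-1-antitrypsin family, was above the signal minimum only in inputs and no fold is given (adjusted p = 0.00015). It read 4.32, 4.17, 3.86, 3.75 and 3.89 in the IPs, against 5.74, 5.50, 5.66, 5.76 and 4.43 in the inputs, where the last array stood apart. The 12 serpins tested and not called ranged from -0.98 (Serpinf1) to 0.13 (Serpinb6b) on the log2 scale, and Serpinf1 missed only the 2-fold limit (1.97-fold lower, adjusted p = 1e-07).

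When the IPs were compared with each other, 8 serpins were higher in Leydig cells and 3 were lower, of 23 tested. Across all probe sets 6.19% were higher and 6.52% lower. Serpina6 passed the signal minimum in this fit through the Leydig cell IP alone, so the count rests in part on the filter. Serpinb1a was at least 23.3-fold higher in the Leydig cell IP (5.01 ± 0.13 on the log2 scale, SE; adjusted p = 3.4e-14), with values of 10.14 to 10.25 there, against 4.93 to 5.52 in the Sertoli cell IP, which are all below the signal minimum. Serping1 was 24.2-fold higher (4.60 ± 0.15, SE; adjusted p = 3.1e-13), Serpina3n 16-fold (4.00 ± 0.36, SE), Serpinf1 7.18-fold, Serpinf2 3.57-fold and Serpinb6b 3.4-fold. Serpinb9 (at least 5.19-fold) and Serpina6 (at least 1.08-fold) were also under the signal minimum in every Sertoli cell IP after saline, and for Serpina3n, with its wide spread, the adjusted p was 8.7e-08. Lower in the Leydig cell IP were Serpini1 (-2.12 ± 0.10, SE; 4.33-fold lower, adjusted p = 3.5e-11), Serpina3a (2.77-fold lower) and Serpina3b (2.4-fold lower). By clade the calls were 2 higher and 2 lower in clade A, 3 higher in clade B, 2 higher in clade F, 1 higher in clade G and 1 lower in clade I. Serpina5 was close in both IPs, with 12.37 to 12.45 in Leydig cells and 12.14 to 12.30 in Sertoli cells (0.22 ± 0.11, SE; adjusted p = 0.09).

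The difference between the 2 enrichments, tested as an interaction over the 16 saline arrays, was called for 11 of 23 serpins. It was positive, toward Leydig cells, for 9, where 5.48% of all probe sets were called in that direction. It was negative, toward Sertoli cells, for 2, where 5.98% were. Of the 9, Serpina6 passed the signal minimum through the Leydig cell IP alone and Serpina1c through the AMH-Cre input alone. Serpina1c was not tested for enrichment in Leydig cells and was lower in the Cyp17iCre input, so its value is not an enrichment there. The log2 differences of enrichment were 4.73 for Serpinb1a, 4.48 for Serpina3n, 4.48 for Serping1, 3.13 for Serpinb9, 3.05 for Serpinf1, 1.82 for Serpinf2, 1.77 for Serpinb6b, 1.53 for Serpina6 and 1.21 for Serpina1c, a gene under the signal minimum in both IPs. The values of Serpinb1a, Serpinb9 and Serpina6 also include groups under the minimum. Serpini1 (-2.08) and Serpina3a (-1.51) lay on the Sertoli cell side. Serpina3b, though lower in the Leydig cell IP, missed the limit here (-0.88), and Serpina5 gave 0.04.

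**Figure D2:**
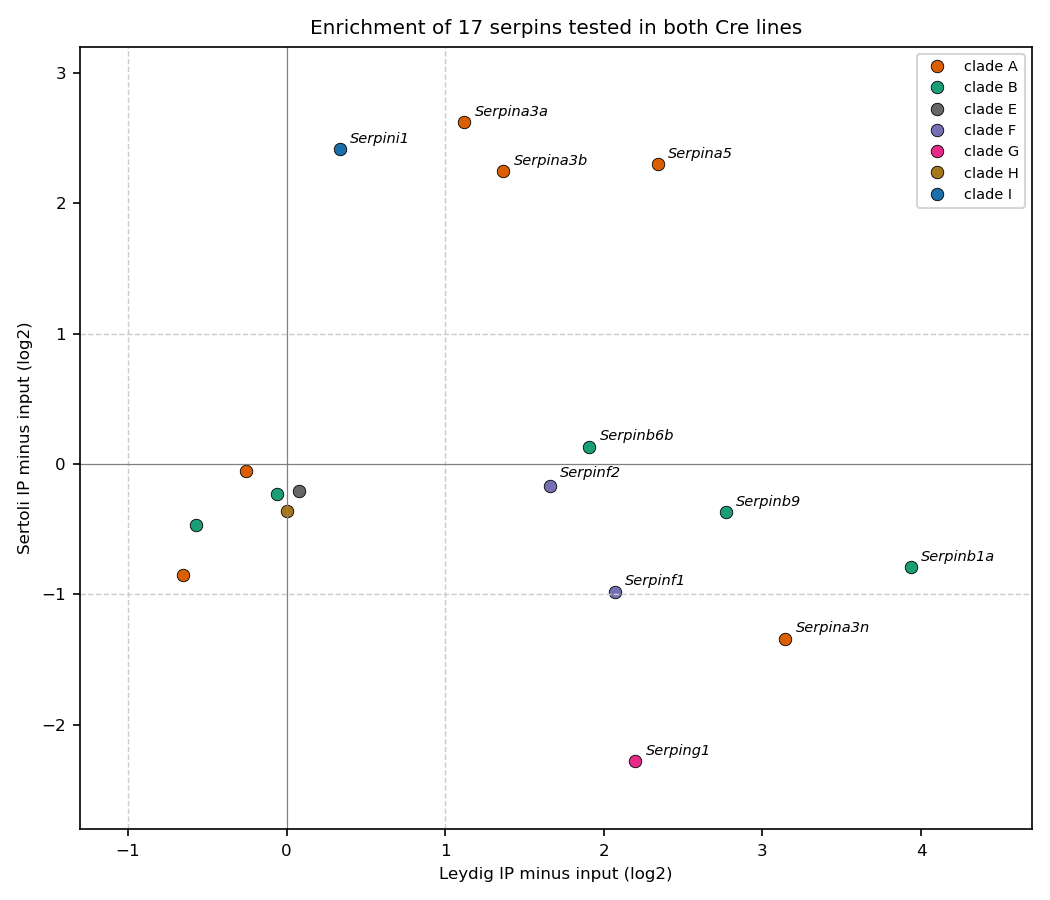
Log2 difference of IP from input in Leydig cells (horizontal axis) and in Sertoli cells (vertical axis) for the 17 serpins tested in both lines, 1 point per gene, colored by clade, with dashed lines at a 2-fold change. Serpinb1a, Serpina3n, Serping1, Serpinf1, Serpinf2, Serpinb9 and Serpinb6b lie to the right with Sertoli cell values near or below 0, Serpini1 lies near 0 on the horizontal axis and high, and Serpina5, Serpina3a and Serpina3b are positive on both axes.

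The inputs of the 2 lines, both whole testis after saline, differed for 1 serpin. Serpina1c was lower in the Cyp17iCre input with 3.54, 3.57 and 3.25, against 5.74, 5.50, 5.66, 5.76 and 4.43 in the AMH-Cre input (-1.97 ± 0.24, SE, adjusted p = 0.00027, with no fold given), while 0.153% of all probe sets were lower and 0.47% higher. Both probe sets that name Serpina1c together with Serpina1a, Serpina1b, Serpina1d and Serpina1e were lower but not called (-0.80 and -0.53 on the log2 scale). Nor were they called for the difference of enrichments (0.72 and 0.56). Serpina16 and Serpina1f, which lie in the same cluster on chromosome 12 as Serpina1c, varied widely among the AMH-Cre inputs. Serpina16 read 4.98, 4.81 and 4.92 in the Cyp17iCre inputs, against 7.18, 5.59, 4.63, 6.41 and 5.77 in the AMH-Cre inputs. Serpina1f read 5.52, 5.89 and 5.71 in the Cyp17iCre inputs, against 7.50, 6.55, 5.51, 6.33 and 5.36 in the AMH-Cre inputs. In both genes the groups overlapped, and neither difference was called.

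The proteases that these serpins are known to meet, their cofactors and their clearance receptors were read as a list of 33 genes, 32 of them on the arrays. In the Leydig cell IP 5 of 22 tested were higher and 1 lower, where 11% and 10.7% of all probe sets were. In the Sertoli cell IP 2 of 24 were higher and 3 lower, where 12.4% and 11.7% of all probe sets were, so the Sertoli cell counts were near the background. The tissue plasminogen activator Plat, the target of Serpini1, was 7.44-fold higher in the Sertoli cell IP (10.38, 10.56, 10.54, 10.10 and 10.29, against 7.39, 7.39, 7.42, 7.69 and 7.52 in the inputs, adjusted p = 2.4e-10). In the Leydig cell IP Plat read 6.96, 7.20 and 7.62, against 7.01, 7.06 and 6.99 in the inputs, and was not called. Both Serpini1 and Plat were lower in the Leydig cell IP than in the Sertoli cell IP, Plat with a log2 difference of -3.12.

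The complement proteases that Serping1 inhibits were on the other side. C1ra read 8.09, 9.03 and 8.86 in the Leydig cell IPs, against 5.99, 5.69 and 5.93 in the inputs (6.9-fold, adjusted p = 1.8e-05), and C1s1 read 8.83, 9.58 and 9.43, against 6.12, 6.23 and 6.31 (8.34-fold, adjusted p = 3.3e-06). Masp1, of the lectin pathway of complement, was 5.02-fold higher in the Leydig cell IP (adjusted p = 1.7e-05). In the Sertoli cell IP C1s1 was lower (5.07, 5.29, 4.92, 4.79 and 4.49, against 6.60, 6.10, 6.23, 6.68 and 6.30 in the inputs, adjusted p = 2.7e-06). The receptor Lrp1 was enriched in both, 3.65-fold in Leydig cells and 3.99-fold in Sertoli cells. Acr, the acrosin of sperm and a target of Serpina5, was lower in both IPs, with log2 differences of -2.15 in Leydig cells and -2.10 in Sertoli cells, and the spermatid markers that were lower there (7 of 8 and 5 of 8) moved the same way. The secreted protease Htra1 was 12.4-fold higher in the Leydig cell IP and lower in the Sertoli cell IP (-1.09 on the log2 scale).

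**Figure D3:**
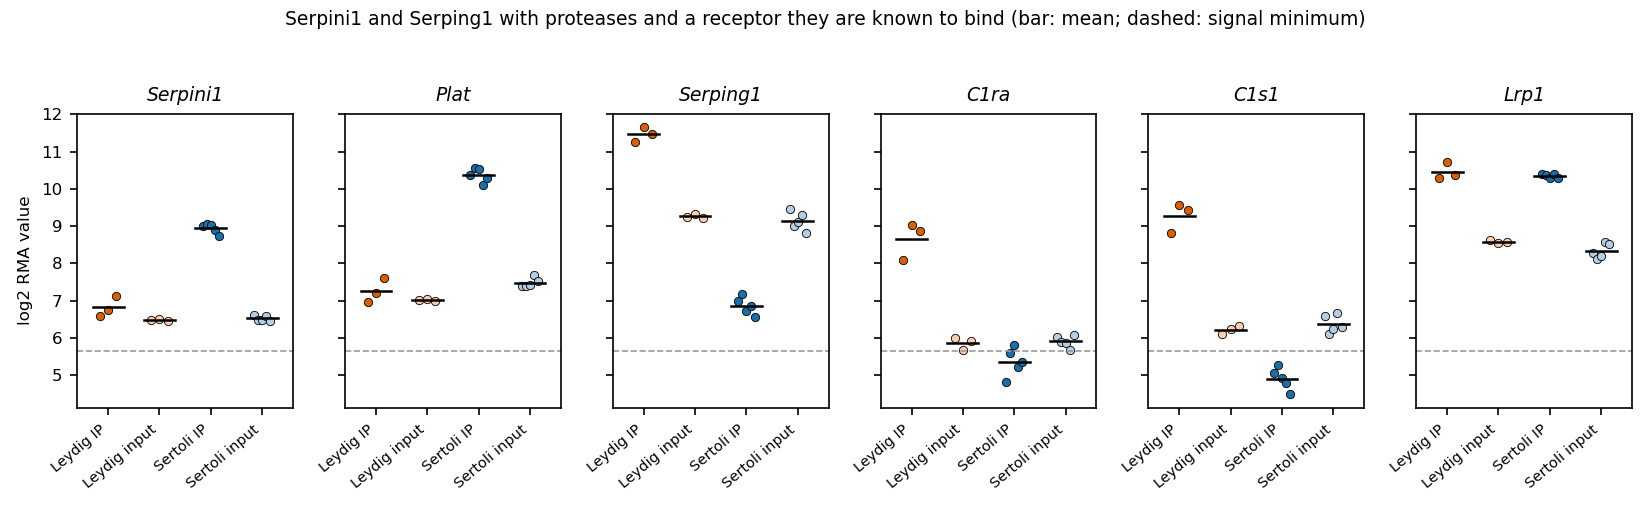
Log2 RMA values of Serpini1, Plat, Serping1, C1ra, C1s1 and Lrp1 after saline, 1 point per array with bars at the means, in Leydig cell IPs and inputs (n = 3 each) and Sertoli cell IPs and inputs (n = 5 each). Serpini1 and Plat are highest in the Sertoli cell IPs, Serping1, C1ra and C1s1 are highest in the Leydig cell IPs, and Lrp1 lies between 10.28 and 10.71 in the IPs of both lines.

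Protease inhibitors of other families, a list of 21 genes with 20 on the arrays, showed 7 higher and 1 lower of 18 tested in the Leydig cell IP, against 11% and 10.7% of all probe sets, and 5 higher and 3 lower of 18 tested in the Sertoli cell IP, against 12.4% and 11.7%. In the Leydig cell IP the change was 17.7-fold for Itih2, whose protein is joined to the trypsin inhibitor bikunin, 17.6-fold for Fetub, an inhibitor of the egg's protease ovastacin, and 7.38-fold for Itih5, all upward. In the Sertoli cell IP Itih2 (-1.26) and Fetub (-1.07) were lower on the log2 scale, while the cystatin Cst12 was 5.91-fold and Wfdc1 5.28-fold higher. The cystatin Cst3 and the metalloproteinase inhibitors Timp2 and Timp3 were higher in both IPs.

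Acyline suppresses the release of LH and FSH from the pituitary, and its effect in Leydig cells fell on 4 serpins. Serpinb6b, Serpinb9 and Serpinb1a, all of clade B on chromosome 13, rose, and Serpinf2 fell, of 19 serpins tested. Of all probe sets tested, 0.0327% were higher and 0.11% lower (limma, adjusted p under 0.05 and at least 1.5-fold). In clade B, 3 of 6 tested genes were called, and all 6 had positive differences, with a median of 0.57 on the log2 scale, against 0.009 over all probe sets. None of the 7 Leydig cell markers was called, though their median log2 difference was -0.34. The mean over the 7 ran from 12.02 to 12.18 after acyline, against 12.33 to 12.36 after saline.

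Serpinb6b rose the most, with 9.10 and 8.95 after acyline, against 7.57, 7.46 and 7.55 after saline (1.49 ± 0.14, SE; 2.81-fold, adjusted p = 0.0089). Serpinb9 read 9.19 and 8.91 after acyline, against 7.81, 8.17 and 8.08 after saline (1.03 ± 0.14, SE; 2.04-fold, adjusted p = 0.038). Serpinb1a read 11.05 and 10.98 after acyline, against 10.16, 10.25 and 10.14 after saline (0.83 ± 0.09, SE; 1.77-fold, adjusted p = 0.02). Each of the 3 had both acyline arrays above all saline arrays. In the other direction, Serpinf2 read 6.56 and 6.48 after acyline, against 8.12, 7.87 and 7.80 after saline (-1.41 ± 0.13, SE; 2.66-fold lower, adjusted p = 0.0085), and its groups did not overlap either.

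These calls rest on few arrays. The number of serpins called was 0 when the acyline array numbered 2 was left out, 1 when the saline array numbered 1 or 3 or the acyline array numbered 1 was left out, and 2 without the saline array numbered 2. It was also 0 with ordinary contrasts in place of limma's shared variance. Serpinf1 was not called (8.76 and 8.34 after acyline, against 9.51, 8.83 and 8.99 after saline, adjusted p = 0.32), nor was Serpina3n, whose acyline arrays at 11.52 and 10.89 overlapped the saline arrays at 9.70, 11.43 and 9.65 (adjusted p = 0.55).

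After 1 h of LH no serpin differed from acyline alone by the test. Of 19 tested, 0 were called by limma and 0 by ordinary contrasts, 3 had an unadjusted p under 0.05, and 0.00818% of all probe sets were called in either direction. Serpinb6b then stood at 9.25 and 8.93, against 9.10 and 8.95 after acyline alone.

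After 4 h of LH Serpinb6b was the only serpin called, and it was lower. It read 7.35 and 7.72 after 4 h of LH, against 9.10 and 8.95 after acyline alone, and the 2 values lay on either side of those after saline. The log2 difference from acyline was -1.49 ± 0.15 (SE; 2.8-fold lower, adjusted p = 0.014), in a comparison where 0.368% of all probe sets were lower and 0.245% higher. Against 1 h of LH it was 2.93-fold lower (-1.55 ± 0.15, SE; adjusted p = 0.018), where 0.159% of all probe sets were lower and 0.0409% higher. The call against acyline was lost without the acyline array numbered 1 or 2 or the 4 h array numbered 1, and the call against 1 h without the array numbered 1 of either time. Both were also lost with ordinary contrasts and in a fit of the compared groups alone.

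The comparisons of LH with acyline share their acyline arrays with the comparison of acyline with saline. The other serpins that responded to acyline were not called after LH. Serpinf2 stayed low, with 6.66 and 6.68 at 1 h and 6.96 and 6.67 at 4 h, all below the saline arrays. Serpinb1a read 11.03 and 10.88 at 1 h and 10.81 and 10.88 at 4 h, and Serpinb9 read 9.28 and 9.11 at 1 h and 8.93 and 8.80 at 4 h, in both genes above every saline array. Serpina3n was the gene with the widest range of group means among the Leydig cell IPs, 1.87 on the log2 scale, yet its replicates lay as far apart, with 9.59 and 11.53 at 1 h and 9.56 and 9.10 at 4 h (adjusted p = 0.22 for 4 h of LH against acyline).

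**Figure D4:**
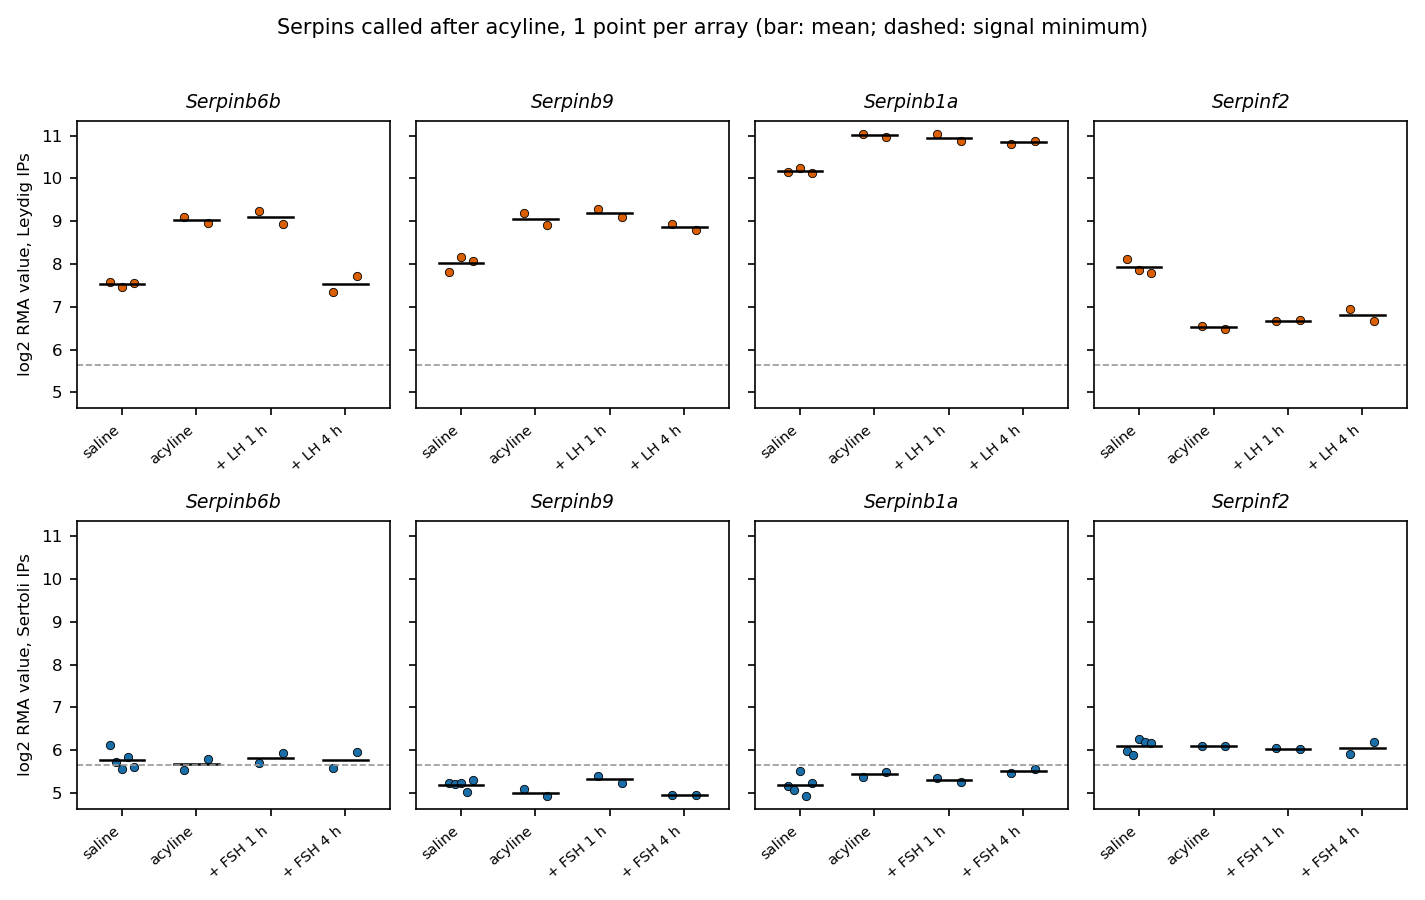
Log2 RMA values of Serpinb6b, Serpinb9, Serpinb1a and Serpinf2, 1 point per array with bars at the means. The top row shows Leydig cell IPs after saline, acyline, and acyline with LH for 1 h or 4 h, the bottom row Sertoli cell IPs after saline, acyline, and acyline with FSH for 1 h or 4 h, and the dashed line is the signal minimum. In Leydig cells Serpinb6b is up after acyline and back near 7.5 after 4 h of LH, Serpinb9 and Serpinb1a stay up and Serpinf2 stays down, while in Sertoli cells no array of the 4 genes is above 6.25.

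In Sertoli cells no serpin was called in any hormone comparison, of 15 tested in each, and few probe sets of any kind were. The called share of all probe sets, in either direction, was 0.00406% for acyline against saline, 0.0122% for cetrorelix against saline, 0% for 1 h of FSH and 0.0203% for 4 h of FSH against acyline, and 0.00406% for testosterone against cetrorelix. Ordinary contrasts called 0 serpins in each as well. At an unadjusted p under 0.05 there was 1 serpin for cetrorelix and 0 for each of the other 4 comparisons. That gene was Serpinb1a, under or near the signal minimum with 5.59 and 5.66 after cetrorelix, against 5.17, 5.06, 5.52, 4.93 and 5.22 after saline. The enriched Sertoli cell serpins kept their levels over all 15 Sertoli cell IPs, with Serpina5 between 12.07 and 12.30, Serpina3a between 10.48 and 10.89, Serpini1 between 8.70 and 9.20 and Serpina3b between 7.56 and 8.25.

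The effect of acyline was then compared between the cell types in a single fit of all IPs. It differed for 3 serpins. Acyline was given for 4 days to the Cyp17iCre: RiboTag mice and for 3 days to the AMH-Cre: RiboTag mice, so cell type and length of treatment cannot be told apart here. Serpinb6b (1.58 ± 0.24, SE; adjusted p = 0.01) and Serpinb9 (1.22 ± 0.18, SE; adjusted p = 0.0091) were the 2 with a higher log2 effect in Leydig cells, in a direction where 0.0236% of all probe sets were called. Serpinf2 was the 1 with a lower effect (-1.41 ± 0.16, SE; adjusted p = 0.0012), where 0.0433% were called. In Sertoli cells Serpinb6b read 5.54 and 5.80 after acyline, against 5.56 to 6.11 after saline, and Serpinf2 6.09 and 6.09, against 5.88 to 6.25. Serpinb9 was under the signal minimum in all Sertoli cell IPs. It passed the minimum in this fit through the Leydig cell IPs alone, so the count rests in part on the filter. The difference for Serpinb1a was 0.58 (adjusted p = 0.33).

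Over all treatments, the 5 serpin probe sets with the highest mean signal in the 9 Leydig cell IPs were those of Serpina5 (12.47 ± 0.13, SD), Serping1 (11.57 ± 0.16), Serpinb6a (10.97 ± 0.16), Serpinb1a (10.69 ± 0.38) and Serpina3n (10.33 ± 0.99). In the 15 Sertoli cell IPs they were those of Serpina5 (12.18 ± 0.07, SD), Serpina3a (10.67 ± 0.12), Serpinb6a (10.52 ± 0.10), Serpini1 (8.95 ± 0.13) and Serpina3b (7.86 ± 0.22). Probe sets differ in how brightly they report an RNA, so these values do not order the genes by their amounts of RNA. Serpinh1, whose probe set is the only one of clade H, lay between 5.84 and 6.66 on all arrays and was called in no comparison.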

How the data were processed

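RNA of the whole testis (input) or of the HA-tagged ribosomes alone (IP) was hybridized to Affymetrix Mouse Gene 1.0 ST arrays, 32 in all. Per the labels and the methods, 100 ng of RNA was amplified for each array. The deposited log2 values of 35556 probe sets were normalized by the authors with RMA, of a version not given in the sources used here. RMA sets all arrays to a like distribution (array medians 6.36 to 6.50), so a change is relative to the other probe sets of an array. Groups came from the GEO titles. The 4 arrays of cetrorelix-treated mice are IPs by title, sample type and antibody but inputs by source label, and were used as IPs.

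Probe sets carry the symbols of the platform annotation; those with several symbols (1621, of which 5 name serpins) or with no entry (12146) are no members. The members, lists and tests were chosen with earlier results of these data known. Named with values by rule are serpins called in a comparison, the 5 with the highest signal in each IP and serpins with opposite calls. Other serpins are named to account for every member, and the values of Serpina16, Serpina1f and Serpinh1 were chosen after they were seen.

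Contrasts were fitted with limma 3.58.1 in R 4.3.3 on all probe sets with a linear signal over 50 on at least 1 array of the fit, and adjusted by Benjamini-Hochberg. A serpin was called where the adjusted p was under 0.05 and the change at least 2-fold (IP against input, and between cell types) or 1.5-fold (between IPs of a line, and for the acyline interaction). Enrichment was fitted within a line, hormone effects over the IPs of a line, differences between cell types over the 16 saline arrays, and the acyline interaction over all IPs. The code was tested on simulated data. Tables and figures were made with Python 3.11.15. Alternatives were no adjustment, other filters, ordinary contrasts, a replicate block, quantile and median scaling, other sets of arrays in the fit and arrays left out. The number of arrays, 2 to 5 in a group, limits the precision. Some genes of the target and marker lists were not analysed here.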

Additional observations from a re-analysis of the deposited data

Results flagged for a closer look

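A single array stood apart from the rest of its group in 3 of 38 pairs of a serpin and a group that were examined, where chance gives about 1 in 20. The AMH-Cre input array numbered 5 was low for Serpina1c (4.43, against 5.50 to 5.76 on the other 4 arrays) and high for Serpinb6a (10.88, against 10.67 to 10.73). The Sertoli cell IP array numbered 4 was low for Serpina3b (7.56, against 7.95 to 8.11). Each value is a log2 value after saline.

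Enrichment in the IP differed between the cell types for 11 serpins by the interaction test. As Leydig cell minus Sertoli cell enrichment on the log2 scale, the values were 4.73 for Serpinb1a, 4.48 for Serpina3n, 4.48 for Serping1, 3.13 for Serpinb9, 3.05 for Serpinf1, 1.82 for Serpinf2, 1.77 for Serpinb6b, 1.53 for Serpina6, 1.21 for Serpina1c, -1.51 for Serpina3a and -2.08 for Serpini1. That of Serpina1c carries the low input array given above, IP values under the signal minimum and a difference between the inputs of the 2 lines.

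The effect of acyline, as Leydig cell minus Sertoli cell effect on the log2 scale, differed for Serpinb6b (1.58), Serpinb9 (1.22) and Serpinf2 (-1.41). Acyline was given for 4 days in the Leydig cell line of mice and 3 in the Sertoli cell line. The Sertoli cell IPs were all under the signal minimum for Serpinb9.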

How the results depend on the processing

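No difference changed its direction under any alternative. Of 51 single differences, 43 kept their call under every setting and with every array left out, and 10 of the 15 counts of called serpins stayed within 1.5 times. With ordinary contrasts the count was 0 for acyline in Leydig cells (4 in the main analysis), 0 for 4 h of LH against acyline (1) and 0 for 4 h against 1 h of LH (1). The same-numbered arrays did not deviate together in every pair (correlations of -0.027 to 0.161 for IP and input of a line), so the numbers were not used as pairs. With the replicate number as a block, the counts were 0 for acyline in Leydig cells, 0 for 4 h of LH against acyline, 0 for 4 h against 1 h of LH and 1 for the acyline interaction (3). With crossed numbers, an alternative chosen after seeing the data, 1 serpin was called for 4 h of LH and 0 for testosterone. In a fit of only the groups compared the counts were 0 for 4 h of LH against acyline and 0 for 4 h against 1 h of LH. With p not adjusted they were 2 for the inputs (1) and 2 for 4 h of LH, and with all 32 arrays in a single fit, chosen after seeing the data, 2 for the inputs and 2 for 4 h of LH. Leaving out 1 array gave 1 to 2 calls for the inputs (2 without the AMH-Cre input numbered 3), 0 to 2 for acyline in Leydig cells, 0 to 1 for 4 h of LH against acyline, 0 to 1 for 4 h against 1 h of LH, 7 to 9 for Sertoli cell enrichment, 11 to 12 for the difference of enrichments and 2 to 3 for the acyline interaction. Without the filter on low signal the adjusted p of Serpinb9 after acyline was 0.069 by limma. The causes of these changes were not tested beyond the loss of arrays. Values near 5.64 are close to background, which limits what can be said of Serpina6, Serpinb1b and the Sertoli cell values of clade B.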

Other observations

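Agt, angiotensinogen, is a serpin by structure that the naming rule leaves out. It read 13.55, 13.56 and 13.52 in the Leydig cell IPs, against 11.46, 11.34 and 11.43 in the inputs, and 9.29, 9.16, 8.95, 9.47 and 8.93 in the Sertoli cell IPs, against 11.30, 10.90, 10.84, 10.84 and 10.94 in the inputs. The log2 difference of IP from input was 2.14 in Leydig cells and -1.81 in Sertoli cells, the same 2 directions as for Serping1 and Serpina3n.

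For 3 further probe sets, the serpin symbol comes only from the study's list of Leydig cell-enriched transcripts, which was chosen on these arrays, so their values in Leydig cells are a description and not independent evidence. Serpina3c read 12.09, 12.14 and 12.06 in the Leydig cell IPs, against 8.48, 8.44 and 8.24 in the inputs. In Sertoli cells it read 6.40, 5.97, 5.96, 5.90 and 5.79 in the IPs, against 8.39, 7.79, 8.13, 8.34 and 8.26 in the inputs. Serpina3f read 8.33, 8.75 and 8.64 in the Leydig cell IPs, against 5.78, 5.93 and 6.17 in the inputs, and Serpina3h read 8.12, 8.27 and 8.20 in the IPs, against 6.17, 6.08 and 6.11 in the inputs. In Leydig cells the log2 differences of Serpina3c, Serpina3f and Serpina3h after acyline against saline were 0.05, 0.89 and -0.18. For 4 h of LH against acyline they were -0.45, -0.93 and -0.58 (adjusted p = 0.072, 0.061 and 0.060 by limma). None of these was called.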
